A study of Mus musculus with 12 samples.

Results

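Pleiotrophin (Ptn) and midkine (Mdk) are secreted growth factors, and Alk, Ptprz1 and Sdc3 encode receptors described for them. These 5 genes, of 19057 gene symbols on the array, were examined in 3 stable lines of NSC-34, a hybrid of mouse neuroblastoma cells and embryonic spinal cord motor neurons. The genes were chosen on earlier results of these same arrays, so their levels and differences are given as a description with no test. Every probe annotated to one of the 5 symbols was taken, which gave 12 probes.

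The lines differed in progranulin (PGRN), a secreted protein that supports neuronal survival. NSC-34/shPGRN cells under-express mouse PGRN through a short hairpin RNA in the pRS vector, selected with puromycin. NSC-34/hPGRN cells overexpress human PGRN from pcDNA3, selected with G418, and control cells carry a vector that the sources used here do not identify. The modified lines are called shPGRN and hPGRN cells below. Each line is a single stable line of which 4 subcultured flasks were stepped from 10% serum through 5% to 1%, and RNA was taken after 24 h in the last medium. The 4 arrays of a line are therefore samples of 1 line, and errors and p-values measure only the spread between such flasks. Line, vector and selection drug cannot be told apart in any comparison, and the 3 comparisons share arrays.

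Pleiotrophin and midkine are the vertebrate members of a family of heparin-binding cytokines. Both bind the sulfated sugar chains of proteoglycans at the cell surface, and both promote neurite outgrowth in cultured neurons. Ptprz1 is a receptor tyrosine phosphatase that carries chondroitin sulfate, and ligand binding is held to lower its phosphatase activity. Sdc3, or N-syndecan, carries heparan sulfate and is a neuronal pleiotrophin receptor. Alk is a receptor tyrosine kinase, best known for activating mutations in human neuroblastoma, and has been described as a receptor of both growth factors, although other ligands also activate it.

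Ptn had the largest difference between lines of the members that were above background on all 12 arrays, so the 250 bases before its annotated start are shown. They lie on the minus strand at chr6:36810180-36810429 of the mouse build GRCm38.p6 and come from RefSeq.
Ptn upstream: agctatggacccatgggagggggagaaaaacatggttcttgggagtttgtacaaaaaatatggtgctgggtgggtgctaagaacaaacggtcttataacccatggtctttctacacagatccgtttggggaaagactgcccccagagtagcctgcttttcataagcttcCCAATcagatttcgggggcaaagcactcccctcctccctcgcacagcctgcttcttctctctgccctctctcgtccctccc
The capitals mark a match to the CCAAT box (CCAAT, searched on both strands), 81 to 77 bases before the start. The same search found CCAAT in 33.8% of the 32851 upstream windows in the table. Neither the GC box (GGGCGG, in 32.7% of windows) nor the TATA box (TATAAA, in 12.4%) had a match in these letters on either strand. G and C made up 52% of the Ptn window, close to the median of 52.4% over all windows. The windows of the receptor genes were richer in G and C, at 76.4% for Sdc3, 71.6% for Ptprz1 and 65.2% for Alk. They held 3, 2 and 1 matches to the GC box and none to the other motifs.

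Arrays are reported as deposited intensities, which are background-subtracted on a linear scale. The background limit, the intensity above which a probe is called present, lay between 12.5 and 13.0 on the 12 arrays. A probe was kept if it passed this limit on at least 4 arrays, which 5 of the 12 member probes did. They represent Ptn, Mdk, Alk and Sdc3. No probe of Ptprz1 was kept. Log2 differences are on values corrected with an offset of 50, which shrinks differences of dim probes, and their standard errors (SE) come from a limma fit of 11107 genes. Levels of different genes are not compared, since they come from different probes. Transcripts of Grn, which encodes PGRN, were lower in shPGRN cells on every array than in both other lines, whose arrays overlapped, with a mean intensity of 612 ± 74.1 (SD, n = 4) in shPGRN cells, 1048 ± 158 in hPGRN cells and 887 ± 55.2 in control cells. The Grn probe is annotated to the mouse transcript, and its reading of the human one was not tested, so it does not check the hPGRN label.

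Marker genes bear on what the cells are. Of 12 neuron and motor neuron markers on the array, Nefm, Gap43, Uchl1, Mapt, Isl1, Phox2a and Th were above background on all 12 arrays, while Nefl was above it on no array. Slc18a3, the vesicular acetylcholine transporter, was above background on 0 of 4 shPGRN arrays (mean intensity 0.714) and on all 4 of hPGRN (17.9) and of control cells (31.6). Dbh, which makes noradrenaline, was above it on 4 shPGRN, 3 hPGRN and 1 control arrays, with means of 32.3, 19.8 and 6.29. Tubb3 was above it on 0, 1 and 1 arrays in the same order, with means of 1.46, 1.08 and 5.68. Chat, choline acetyltransferase, was above it on 2, 1 and 0 arrays, with means of 10.2, 9.18 and 1.22. The summed intensity of the list was 10276 to 11920 in shPGRN, 12538 to 13884 in hPGRN and 10997 to 11975 in control cells. Bright probes carry such sums. Here Uchl1 had means of 4889, 5067 and 4221 and Phox2a of 3337, 4621 and 4835 in that order. Isl1 had means of 1550, 2242 and 1063, highest in hPGRN cells. Gap43 was lowest in shPGRN cells, with means of 411, 646 and 728. None of 6 fibroblast markers was above background on all arrays of a line. Of 4 Schwann cell markers only Pmp22 was above it on all 12 arrays, and the list summed to 662 to 775 in shPGRN, 756 to 919 in hPGRN and 351 to 572 in control cells. Pmp22 alone had means of 690, 828 and 417 in these lines, so the sum mostly follows that probe. Egr2 was above background on 4, 3 and 4 arrays. The astrocyte and oligodendrocyte markers summed to 222 to 307, 179 to 248 and 217 to 228 in the same order. Mbp and Pdgfra of that list were above background on all 12 arrays, and Olig2 and Sox10 on none. The macrophage markers summed to 51.0 to 78.6, 42.8 to 81.5 and 17.2 to 58.9. Of these, Csf1r was above it on 4, 4 and 3 arrays and Aif1 on 4, 3 and 2 arrays of shPGRN, hPGRN and control cells, and Cx3cr1 on no array. The part of these markers in the differences below was not tested. In RNA from whole flasks, fewer cells of a type and less RNA per cell cannot be told apart.

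Ptn, a trophic factor for neurons including motor neurons, was lowest in shPGRN cells and highest in hPGRN cells. Its intensity was 171, 241, 167 and 251 on the 4 arrays of shPGRN cells, with a mean of 207 ± 44.8 (SD, n = 4). The arrays of hPGRN cells gave 426, 351, 511 and 454, with a mean of 436 ± 66.6. Control cells gave 269, 332, 294 and 363, with a mean of 315 ± 41.2. All 4 shPGRN arrays lay below all arrays of both other lines, while the lowest hPGRN array lay below the highest control array. The arrays of Ptn were thus ordered by line except for that overlap between hPGRN and control cells.

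The mean intensity of Ptn in hPGRN cells was 2.10 times that in shPGRN cells, with a log2 difference of shPGRN minus hPGRN cells of -0.87 (SE 0.12). Of all genes tested, 0.45% had a larger absolute difference in that comparison. Since Ptn was chosen on earlier results of these arrays, this share and those that follow are no test. Control cells had 1.52 times the mean of shPGRN cells, a log2 difference of -0.48 (SE 0.12), which 4.53% of genes exceeded in size. hPGRN cells had 1.39 times the mean of control cells, a log2 difference of 0.39 (SE 0.12), which 4.24% of genes exceeded. The control mean thus lay between those of the modified lines. Over the 22 alternative ways of processing, the log2 difference between the modified lines ran from -1.08 to -0.79 and that between shPGRN and control cells from -0.62 to -0.40. The kept probe is ILMN_2638114. The other Ptn probe passed the background limit only on replicate 3 of hPGRN cells, at an intensity of 19.1, and gives no second reading.

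**Figure D1:**
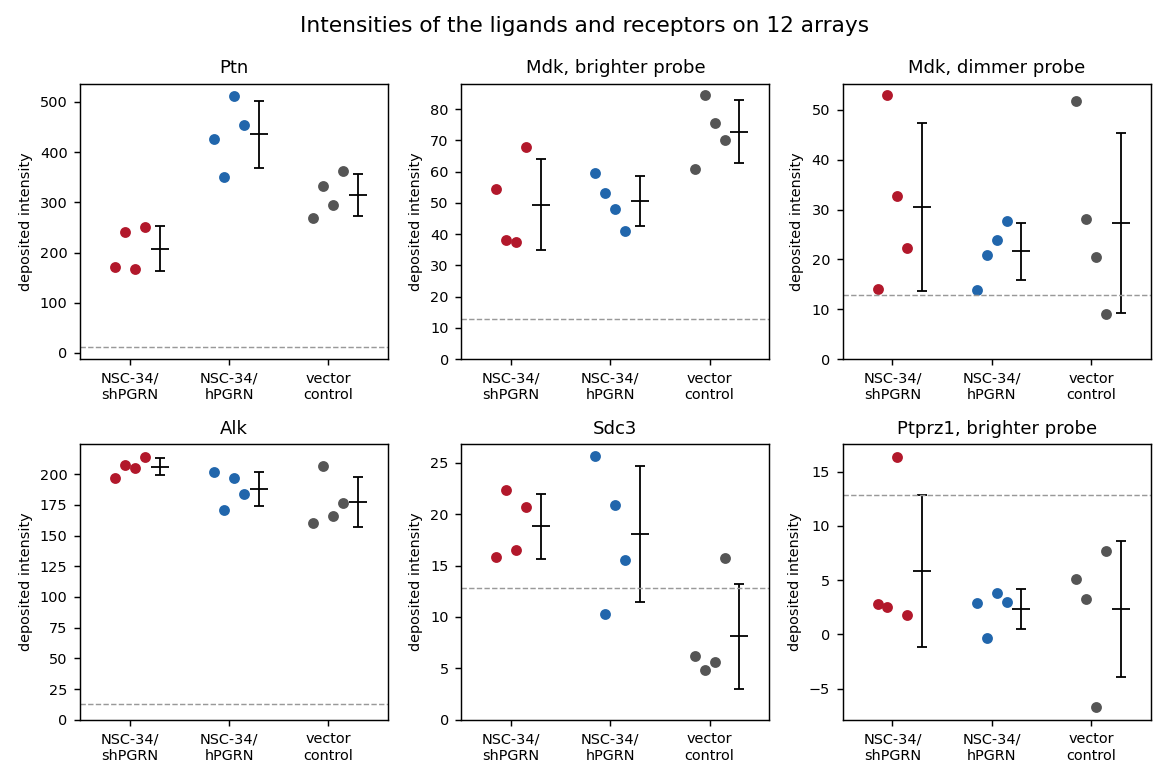
Deposited intensity (linear y axis) of each kept probe of Ptn, Mdk, Alk and Sdc3 and of the brighter Ptprz1 probe on the 12 arrays, by line. Points are arrays in replicate order, the bar beside them is the mean with SD (n = 4), and the dashed line is the mean background limit; the 4 shPGRN arrays of Ptn, at 167 to 251, sit below all others of that panel.

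Mdk, a growth factor of the embryonic nervous system that is induced by retinoic acid, was read by a brighter and a dimmer kept probe, and they differed from each other. On the brighter probe (ILMN_3158499) shPGRN arrays gave 54.3, 38.0, 37.3 and 68.0, with a mean of 49.4 ± 14.6 (SD, n = 4). hPGRN arrays gave 59.7, 53.2, 47.9 and 40.8, with a mean of 50.4 ± 7.997. Control arrays gave 60.7, 84.5, 75.7 and 70.1, with a mean of 72.8 ± 9.99. Control cells thus had the highest mean of the 3 lines on this probe, and the arrays of the modified lines overlapped.

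All 4 hPGRN arrays of this probe lay below all control arrays, with a log2 difference of -0.24 (SE 0.10). shPGRN arrays overlapped control arrays at replicate 4, with a log2 difference of -0.26 (SE 0.10). The modified lines differed by -0.02 (SE 0.10), a smaller difference than 92.7% of genes. The dimmer probe (ILMN_1254450), which is annotated to another transcript of the gene, did not share the direction of shPGRN against control cells. Its intensities were 14.0, 53.1, 32.6 and 22.4 in shPGRN cells, 13.9, 20.9, 23.9 and 27.6 in hPGRN cells and 51.8, 28.1, 20.5 and 8.94 in control cells. These values overlapped in every comparison, with log2 differences of 0.12, 0.05 and -0.07 (SE 0.12 each) for shPGRN minus hPGRN, shPGRN minus control and hPGRN minus control cells. Averaging both probes brought the shPGRN difference from control cells to -0.11. The other 2 Mdk probes were above background on no array.

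Alk, the receptor tyrosine kinase, was present on all 12 arrays and differed little between lines. shPGRN arrays gave 197, 208, 205 and 214, with a mean of 206 ± 7.01 (SD, n = 4). hPGRN arrays gave 201, 170.5, 197 and 184 (mean 188 ± 13.9), and control arrays 160.4, 206, 166 and 177 (mean 177 ± 20.5). The order of the means was shPGRN, hPGRN, control, and each neighbour in that order overlapped the next. The log2 differences were 0.10 between shPGRN and hPGRN cells, 0.16 between shPGRN and control cells and 0.06 between hPGRN and control cells, with an SE of 0.09 each. The highest control array, replicate 2, lay above the mean of shPGRN cells. The second Alk probe was above background on no array.

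Sdc3, the heparan sulfate receptor, was read near the background limit. shPGRN arrays gave 15.8, 22.3, 16.5 and 20.7, all of them above the limit. hPGRN arrays gave 25.6, 10.3, 20.9 and 15.6, of which 3 were above it. Control arrays gave 6.22, 4.83, 5.60 and 15.8, of which only replicate 4 was above it. Control cells were thus lowest in 3 of 4 arrays, and the means were 18.8 ± 3.17 (SD, n = 4), 18.1 ± 6.61 and 8.10 ± 5.14 in the 3 lines.

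After background correction the Sdc3 log2 differences were 0.18 (SE 0.09) for shPGRN minus control cells, 0.17 (SE 0.09) for hPGRN minus control cells and 0.01 (SE 0.09) between the modified lines. The corrected values overlapped in each comparison, although the mean deposited intensities of shPGRN and hPGRN cells were 2.32 and 2.23 times that of control cells. The size of the differences from control cells follows the offset, since with an offset of 16 in place of 50 they were 0.30 and 0.28. A second Sdc3 probe passed the limit on 1 array only. Ptprz1, the phosphatase receptor, had no probe above background on more than 1 array. Its brighter probe ran from -6.70 to 7.68 on 11 arrays, with 16.3 on shPGRN replicate 3, and the other probe from -20.1 to 10.1.

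**Figure D2:**
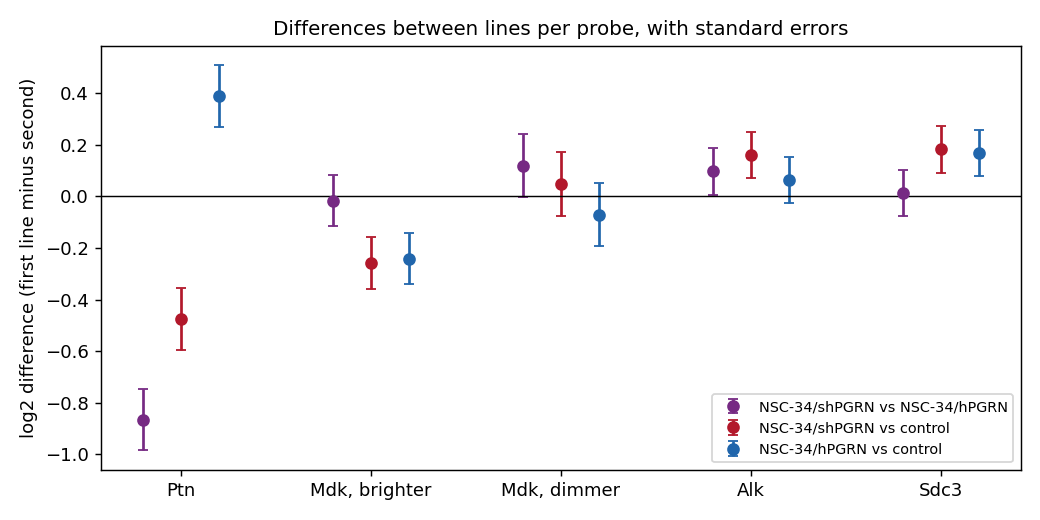
Log2 difference between lines (y axis, first line named minus second) for each kept member probe, with the SE of the fit as bars. Ptn reaches -0.87 between the modified lines, and the brighter and dimmer Mdk probes fall on different sides of 0 against control in shPGRN cells.

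On the corrected log2 values, 1 of the 4 members with a kept probe had arrays that did not overlap in each comparison. It was Ptn between the modified lines, where 19.5% of all genes tested did not overlap, and Ptn between shPGRN and control cells, where 18.3% did not. It was Mdk between hPGRN and control cells, where 13.1% did not. On the deposited intensities the lowest shPGRN array of Sdc3 (15.82) also lay just above its highest control array (15.77). With 4 genes these shares cannot be told from the background, and nothing is read from them.

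The genes whose line means lay nearest to those of Ptn were found by distance over the 3 lines, a description that many genes could meet with so few points. They were H2-Q8, Acss2, Psmb8, Igsf9 and Nsdhl, at distances of 0.06, 0.06, 0.06, 0.06 and 0.07 on the log2 scale. Acss2, which makes acetyl-CoA from acetate, had mean intensities of 489 ± 21.3 (SD, n = 4) in shPGRN cells, 999 ± 183 in hPGRN cells and 694 ± 59.2 in control cells. Nsdhl, an enzyme of cholesterol synthesis, gave 1099 ± 39.3, 2137 ± 39.2 and 1705 ± 368 in the same order. Psmb8, a subunit of the immunoproteasome, gave 350.2 ± 42.6, 658 ± 69.7 and 507 ± 21.9. All of these were lowest in shPGRN cells and highest in hPGRN cells, as the choice by distance requires.

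Other genes of the pathway were taken from 7 lists, written with earlier results of these arrays known. They cover other receptors and binding proteins, partners of Ptprz1, signal proteins of Alk, genes described downstream of ALK in human neuroblastoma, the synthesis of heparan sulfate and of chondroitin sulfate, and glypicans. Of their 119 genes, 111 were on the array and 84 could be tested. A gene was called where limma gave an adjusted p under 0.05 after Benjamini-Hochberg adjustment over all 11107 genes.

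Most of the 84 genes passed in no comparison. Between shPGRN and hPGRN cells 3 were lower and 5 higher, or 3.57% and 5.95%, against 7.25% lower and 6.90% higher of all genes. Between shPGRN and control cells 5 were lower and 12 higher, or 5.95% and 14.3%, against 6.97% and 7.46%. Between hPGRN and control cells 1 was lower and 4 higher, or 1.19% and 4.76%, against 3.27% and 3.78%. The median log2 fold change of the 84 genes was -0.00308, 0.0277 and 0.0249 in these comparisons, and that of all genes 0.0025, -0.000723 and -0.00211. When single arrays were left out, the 12 genes higher in shPGRN than control cells became 8 to 12, lowest without control replicate 1 or 4. The 3 lower than in hPGRN cells became 0 to 3, lowest without shPGRN replicate 4 or hPGRN replicate 1 or 2, and the 5 higher became 3 (without shPGRN replicate 2) to 10 (without control replicate 4). The 5 lower than in control cells became 3 to 5, lowest without shPGRN replicate 2 or 4 or control replicate 1 or 3. In hPGRN against control cells the 4 higher became 2 to 5, lowest without hPGRN or control replicate 4, and the 1 lower gene was lost without hPGRN replicate 3 or 4 or control replicate 3.

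Nrp1 and Hs3st1 had the largest changes among these genes, both higher in shPGRN cells. Nrp1 encodes neuropilin-1, a co-receptor of semaphorins and VEGF that also binds midkine and pleiotrophin. Its intensity was 424, 408, 529 and 438 in shPGRN cells, against 199.9, 168, 167 and 206 in hPGRN and 169.7, 183, 167 and 185 in control cells. Every shPGRN array lay above all arrays of both other lines, which overlapped each other. The limma log2 fold change was 1.02 (SE 0.09, adjusted p = 1.12e-07) against hPGRN and 1.07 (SE 0.09, adjusted p = 3.48e-08) against control cells. Both other kept Nrp1 probes ran the same way, at 0.43 and 0.96 against hPGRN and 0.72 and 1.09 against control cells. Nrp1 is among the genes that the study names from these samples, as is Ret, so their place in a list is not independent evidence of its direction.

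Of the 17 tested genes for other receptors and binding proteins, 1 was higher between the modified lines (5.88%, against 6.90% of all genes). In shPGRN against control cells 3 were higher and 1 lower (17.6% and 5.88%, against 7.46% and 6.97%). In hPGRN against control cells 1 was higher (5.88%, against 3.78%). Ptprs, a receptor phosphatase that binds heparan and chondroitin sulfate chains, gave 3845, 3647, 3244 and 3187 in shPGRN, 3760, 4531, 3329 and 4157 in hPGRN and 3014, 2877, 2585 and 2233 in control cells. All arrays of both modified lines lay above all control arrays. Its limma log2 fold change against control cells was 0.55 (SE 0.11, adjusted p = 0.00328) in hPGRN and 0.37 (SE 0.11, adjusted p = 0.0231) in shPGRN cells. In hPGRN against control cells the 4 other kept Ptprs probes gave 0.50, 0.31, 0.13 and 0.03. The call in shPGRN cells was lost under 7 of 22 alternatives. Among them were those without shPGRN replicate 1 or 2 or control replicate 3 or 4 (limma adjusted p = 0.0568 to 0.0832). In shPGRN against control cells the 4 other kept Ptprs probes gave 0.34, 0.10, 0.09 and -0.12. With every probe as a feature, the first of these was also called (limma adjusted p = 0.0395).

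Itgb1, the integrin beta 1 subunit, was higher in shPGRN cells (118 ± 16.8, SD, n = 4) than in control cells (61.8 ± 14.1), at a limma log2 fold change of 0.51 (SE 0.10, adjusted p = 0.000990). A second, kept Itgb1 probe gave -0.01 (SE 0.09) there, and with the mean of both the call was lost (adjusted p = 0.0561). Ltk, the receptor kinase most closely related to Alk, was lower in shPGRN cells (184 ± 20.8) than in control cells (250 ± 21.4), at -0.33 (SE 0.09, adjusted p = 0.0161 in limma). Ltk was the 1 lower gene counted among the other receptors, although whether it binds either growth factor was not examined. Without shPGRN replicate 4, the lowest Ltk array, the limma adjusted p was 0.0600, and a second Ltk probe gave -0.17. In the same comparison Alk itself differed by 0.16 on the log2 scale, with overlapping arrays. The other syndecans, Sdc1, Sdc2 and Sdc4, which also carry heparan sulfate, were tested and passed in no comparison, with limma log2 fold changes of -0.24 to 0.24.

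Heparan sulfate is one of the sugar chains that bind both growth factors. Of 20 tested genes of its synthesis and editing, 6 were higher in shPGRN than in control cells. None was lower. These are 30% and 0%, against 7.46% higher and 6.97% lower of all genes tested. Between the modified lines 3 were higher (15%, against 6.90% of all genes) and none lower, and in hPGRN against control cells 2 were higher (10%, against 3.78%) and none lower. The list's median log2 fold change was 0.20 against control cells in shPGRN cells and 0.06 in hPGRN cells, against -0.000723 and -0.00211 for all genes. Between the modified lines the list's median was 0.0276, against 0.0025 for all genes.

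Hs3st1, which adds the 3-O-sulfate of the antithrombin-binding site of heparan sulfate, gave 107, 118, 106 and 81.4 in shPGRN cells. hPGRN arrays gave 20.3, 19.1, 32.9 and 13.1, and control arrays 13.4, 24.1, 23.7 and 15.6. The other lines were close to the background limit and overlapped, and every shPGRN array was far above them. The limma log2 fold change was 0.91 (SE 0.09, adjusted p = 8.53e-07) against hPGRN and 0.94 (SE 0.09, adjusted p = 3.12e-07) against control cells. Extl1, an exostosin-like glycosyltransferase, gave 156, 205, 155 and 157 in shPGRN, 142, 185, 180.0 and 178 in hPGRN and 94.9, 115, 117 and 105 in control cells. Both modified lines lay above control cells, at limma log2 fold changes of 0.41 (SE 0.09, adjusted p = 0.00449) and 0.43 (SE 0.09, adjusted p = 0.00629), and a second Extl1 probe gave 0.49 and 0.38.

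The other calls in this list had smaller margins. Extl3, which starts the chain, was 894 ± 114 (SD, n = 4) in shPGRN and 627 ± 155 in control cells (log2 fold change 0.49, SE 0.13, limma adjusted p = 0.0159). The call was lost without shPGRN replicate 2 (limma adjusted p = 0.0607) or control replicate 4 (0.0594), and a second Extl3 probe gave 0.36. Glce, the epimerase that makes iduronic acid, was 192 ± 15.8 and 136 ± 17.8 (log2 fold change 0.35, SE 0.10, limma adjusted p = 0.0187). The call was lost without shPGRN replicate 3 (limma adjusted p = 0.0608) or control replicate 1 (0.0684), and the other kept Glce probes gave 0.05 and 0.16. In hPGRN against control cells the used probe gave 0.21 and these probes 0.03 and 0.44. With every probe as a feature, the last was called there (limma adjusted p = 0.0108).

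Ndst2, which removes acetyl groups and adds sulfate, was 134 ± 23.8 (SD, n = 4) in shPGRN, 92.2 ± 15.3 in hPGRN and 90.3 ± 16.03 in control cells. B3galt6, which builds the linker of the chain to its protein, was 147 ± 16.5, 107 ± 15.2 and 109 ± 8.38. Both were higher in shPGRN cells than in either other line, with limma log2 fold changes of 0.27 to 0.34 (adjusted p = 0.0274 to 0.0481). The Ndst2 calls were lost under 9 and 5 of the 22 alternatives against hPGRN and control cells, and those of B3galt6 under 7 and 14. Leaving out 1 array ended the Ndst2 calls in 5 and 3 cases (limma adjusted p = 0.0520 to 0.129) and those of B3galt6 in 6 and 9 (0.0501 to 0.138). Sulf2, which removes 6-O-sulfates outside the cell, was higher in hPGRN (97.1 ± 5.19) than in control cells (56.6 ± 19.0), at 0.41 (SE 0.10, limma adjusted p = 0.0176). That call was lost without hPGRN replicate 4 (limma adjusted p = 0.0547) or control replicate 4 (0.0607).

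**Figure D3:**
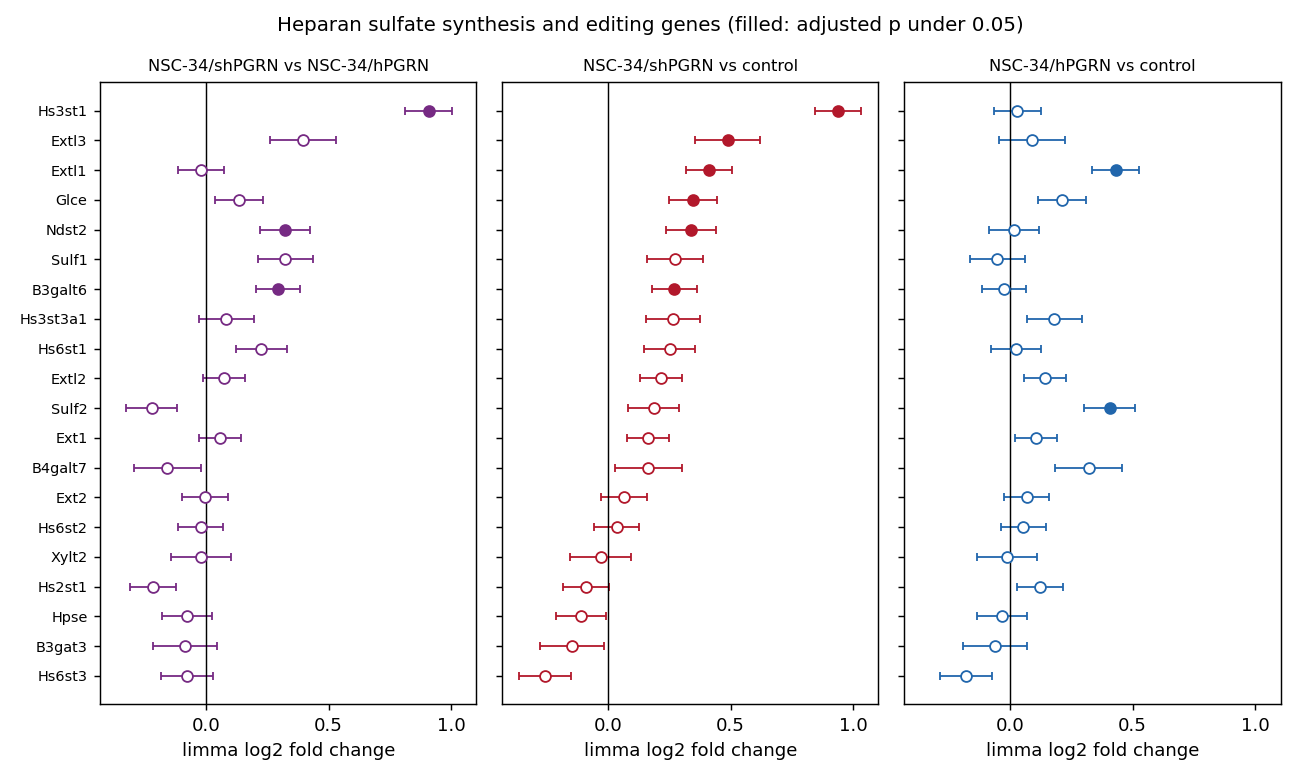
Limma log2 fold change (x axis) of the 20 tested heparan sulfate genes in the 3 comparisons, with SE as bars and genes ordered by their value in shPGRN against control cells. Filled points passed the adjusted p of 0.05: 3 between the modified lines, 6 in shPGRN and 2 in hPGRN against control cells, all to the right of 0.

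Chondroitin sulfate, the chain that Ptprz1 carries, had 10 tested synthesis genes, of which 1 passed. It was lower in shPGRN than in control cells (10%, against 6.97% of all genes). Genes of the linker that joins a chain to its protein, such as B3galt6, were placed in the heparan sulfate list only. Chpf, a chondroitin polymerizing factor, was lower in shPGRN cells (50.3 ± 13.7, SD, n = 4) than in control cells (82.1 ± 23.5), at a limma log2 fold change of -0.33 (SE 0.11, adjusted p = 0.0443). Its arrays overlapped and the call was lost under 14 of 22 alternatives, 9 of which left out 1 array (limma adjusted p = 0.0506 to 0.161). Of 3 tested glypicans, heparan sulfate proteins anchored in the membrane by a lipid, Gpc1 was lower in shPGRN cells. That is 33.3% of the list, against 6.97% lower of all genes against control and 7.25% against hPGRN cells. Gpc1 gave 2061, 2458, 1932 and 2143 in shPGRN, 2628, 2711, 2544 and 2669 in hPGRN and 2994, 3108, 2818 and 2438 in control cells. All shPGRN arrays lay below those of hPGRN cells and 1 overlapped the control arrays. The limma log2 fold change was -0.39 (SE 0.10, adjusted p = 0.00730) against control and -0.29 (SE 0.10, adjusted p = 0.0434) against hPGRN cells, and 11 of 22 alternatives ended the second call, among them leaving out any hPGRN array or shPGRN replicate 1, 3 or 4 (limma adjusted p = 0.0587 to 0.136).

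**Figure D4:**
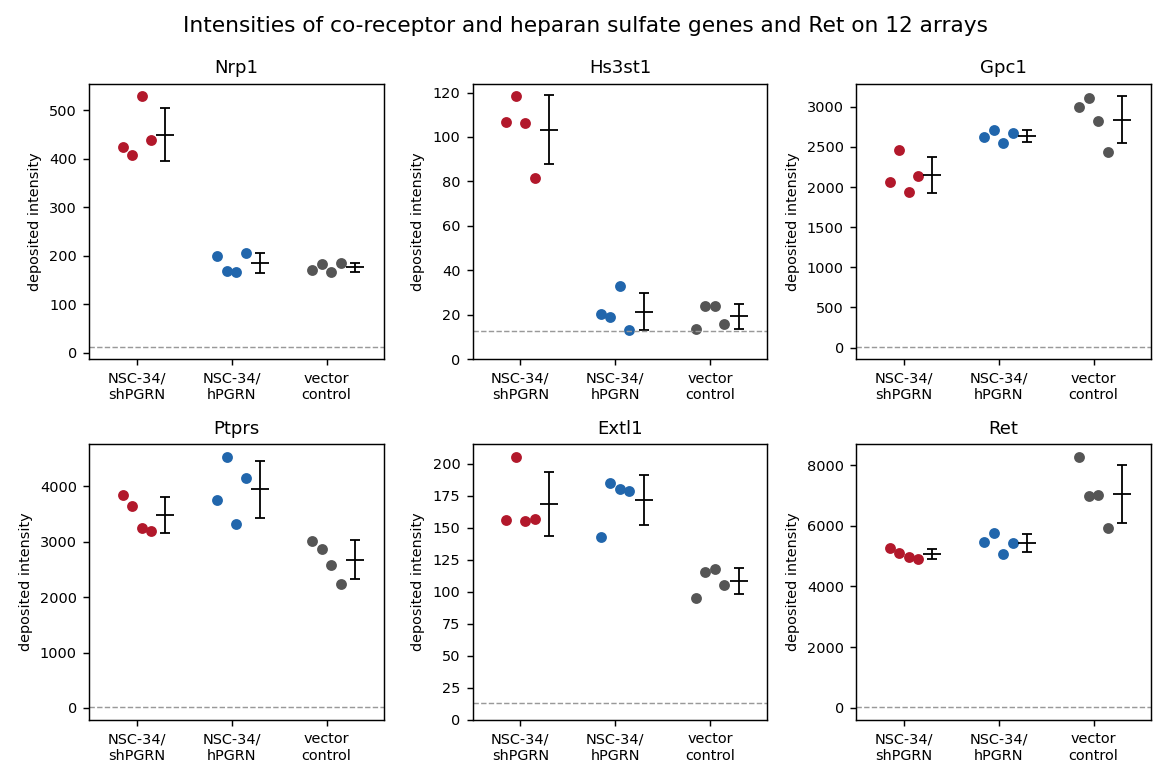
Deposited intensity (linear y axis) on the 12 arrays of Nrp1, Hs3st1, Gpc1, Ptprs, Extl1 and Ret by line. Points are arrays, bars are the mean with SD (n = 4), and the dashed line is the mean background limit; Nrp1 and Hs3st1 stand above both other lines in shPGRN cells alone, and Extl1 and Ptprs stand above control cells in both modified lines.

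Genes described downstream of ALK in human neuroblastoma ran in different directions. Of 8 tested, 2 were lower and 2 higher in shPGRN than in control cells (25% each, against 6.97% and 7.46% of all genes). Between the modified lines 1 was higher (12.5%, against 6.90%), and 1 was lower in hPGRN than in control cells (12.5%, against 3.27%). Ret, a receptor tyrosine kinase for GDNF family ligands, gave 5276, 5102, 4976 and 4891 in shPGRN, 5475, 5775, 5070 and 5423 in hPGRN and 8278, 6994, 7012 and 5946 in control cells. All arrays of both modified lines lay below the control arrays. The limma log2 fold change against control cells was -0.46 (SE 0.10, adjusted p = 0.00182) in shPGRN and -0.36 (SE 0.10, adjusted p = 0.0221) in hPGRN cells, the second lost under 6 of 22 alternatives, among them those without hPGRN replicate 3 or 4 or control replicate 1 or 3 (limma adjusted p = 0.0508 to 0.0855). A second Ret probe gave -0.48 and 0.01 in these comparisons and another -0.40 and -0.45, so the probes differed on hPGRN cells. Between the modified lines the used probe gave -0.10 (SE 0.10, limma adjusted p = 0.560), the second -0.49 and the other 0.05. With every probe as a feature, only the second was called there (limma adjusted p = 0.00156). The study lists Ret as lower in shPGRN cells than in both control and hPGRN cells. It also reports less RET protein in shPGRN cells by Western blot. The used probe here differs from that listing in the comparison with hPGRN cells.

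Etv1, a transcription factor of the ETS family, was higher in shPGRN (248 ± 44.4, SD, n = 4) than in control cells (133 ± 43.9), at a limma log2 fold change of 0.65 (SE 0.14, adjusted p = 0.00249), with 0.59 and 0.67 on its other probes. Dusp6, a phosphatase of ERK, was 4373 ± 487 and 3141 ± 223 (log2 fold change 0.46, SE 0.10, limma adjusted p = 0.00217), with 0.54 and 0.19 on its other probes. Dusp4, another such phosphatase, went the other way, at 832 ± 143 and 1133 ± 132 (log2 fold change -0.42, SE 0.12, limma adjusted p = 0.0202). The call was lost without shPGRN replicate 2 (limma adjusted p = 0.0884), control replicate 1 (0.0607) or control replicate 3 (0.0597), and its 3 other probes gave -0.10, -0.01 and -0.03. Spry4, an inhibitor of receptor kinase signaling, was higher in shPGRN (74.0 ± 16.4) than in hPGRN cells (41.0 ± 12.7), at 0.37 (SE 0.10, limma adjusted p = 0.0157). Arrays of these lines overlapped, and that call was lost without shPGRN replicate 2 or 3 or hPGRN replicate 3 (limma adjusted p = 0.0521 to 0.0573). The Spry4 mean of control cells lay between, at 61.8 ± 7.34, and neither modified line was called against it.

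Of 14 tested adaptors and signal proteins of Alk, 1 passed in each comparison, or 7.14% each time. The 1 between the modified lines was lower, against 7.25% of all genes. Those against control cells were higher, against 7.46% of all genes in shPGRN and 3.78% in hPGRN cells. Rapgef1, an exchange factor for the GTPase Rap1, was higher in shPGRN (449.6 ± 69.4, SD, n = 4) than in control cells (337 ± 52.0), at a limma log2 fold change of 0.35 (SE 0.11, adjusted p = 0.0318). Shc1, an adaptor of receptor kinases, was higher in hPGRN (5226 ± 537) than in control cells (4014 ± 336), at 0.37 (SE 0.10, limma adjusted p = 0.0316). The other kept probes of Rapgef1 gave 0.17, -0.01 and 0.26 and those of Shc1 0.22 and 0.06 in these comparisons, and with the mean of the probes both calls were lost (log2 fold changes of 0.19 and 0.22, limma adjusted p = 0.152 and 0.157). The Rapgef1 call was lost under 8 of 22 alternatives, among them those without shPGRN replicate 1 or 3 or control replicate 1 or 4 (limma adjusted p = 0.0524 to 0.130). The Shc1 call was lost under 9, 6 of which left out 1 array (limma adjusted p = 0.0570 to 0.109). Shc3, the neuronal Shc adaptor, was not above background on any shPGRN array and gave 23.7, 16.02, 14.6 and 10.00 in hPGRN cells, of which 3 were above it. It was at least 1.04-fold higher in hPGRN cells, counted against the background limit on the corrected scale (limma adjusted p = 0.0424, lost under 9 of the 17 alternatives that tested it). In the other 5 of 22 it passed too few arrays to be tested, and it passed the filter only through 3 hPGRN arrays and 1 control array, so no more is read from it. Of 12 tested partners of Ptprz1, only Cntn1 passed, lower in shPGRN than in hPGRN cells (8.33%, against 7.25% of all genes). Cntn1, a neural adhesion protein that binds Ptprz1, gave 29.2, -6.64, -3.35 and -5.60 in shPGRN and 29.4, 27.3, 19.5 and 28.0 in hPGRN cells (limma adjusted p = 0.0288). It was above background on 1 shPGRN array and all hPGRN arrays, so no size is given for the difference, and 6 of the 12 fits that left out 1 array lost the call (limma adjusted p = 0.0631 to 0.0923).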

How the data were processed

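RNA of 4 flasks of each of 3 NSC-34 lines had been hybridized to Illumina MouseWG-6 v2 BeadChips. The authors deposited 1 intensity per probe and array for 45281 probes, already background-subtracted and equally distributed on every array (sorted values differed by at most 0.363). The study names lumi; the exact steps are not given there. A table of non-normalized signals was not used because its 24 columns match no sample. Since 31.7% to 31.8% of values lie below 0, normexp (offset 50), quantile normalization and log2 were applied in limma 3.58.1 (R 4.3.3), which turned an intensity of 0 into 72.2. Gene names came from the platform annotation (34885 probes with 1 symbol, 18 with several, 10378 with none), and the Entrez IDs of 34807 matched RefSeq.

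Each array's background limit (p under 0.05) was set from the mode of its values, with their spread under that mode taken as noise. Of the probes, 20362 passed it on at least 4 of 12 arrays. A gene was represented by its brightest kept probe. The limma model had 1 mean per line over all 12 arrays. The steps were tested on simulated data. The members and the gene lists were chosen with earlier results of these data known. Named were the members, Grn, the called genes of a list with the lowest adjusted p (at most 4 per comparison), and the 5 genes nearest to a member that differed by at least 0.585 on the log2 scale. The values of the syndecans were added after they were seen. The number of arrays limits the precision.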

Additional observations from a re-analysis of the deposited data

Results flagged for a closer look

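In 7 of 81 sets of 4 arrays of a line, 1 array lay far from the other 3 (gap over range above Dixon's 95% critical value). Chance marks about 1 in 20 such sets. Among the members this was Sdc3 in control cells, where replicate 4 gave an intensity of 15.8 and the others 4.83 to 6.22. Cntn1 was marked in shPGRN cells (29.2 in replicate 1, against -6.64 to -3.35) and in control cells (4.44 in replicate 2, against 24.7 to 28.7). Etv1 was marked in control cells, with 198 in replicate 4 against 103 to 116, and Dusp4 in shPGRN cells, with 619 in replicate 2 against 871 to 919. Extl1 was marked in shPGRN cells, with 205 in replicate 2 against 155 to 157, and in hPGRN cells, with 142 in replicate 1 against 178 to 185.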

How the results depend on the processing

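Of 22 alternatives, 12 left out 1 array. The log2 differences of the members stayed within 1 SD of their values in 255 cases and moved further in 9, and no named result changed direction with a call. On the authors' values on a log2 scale, floored here at the lowest positive value (0.00034), Ptn reached -1.08 between the modified lines, Sdc3 0.12 there and 1.38 and 1.26 in shPGRN and hPGRN cells against control, and Mdk -0.59 and -0.53 against control. With an offset of 16, Sdc3 gave 0.30 and 0.28, and with the mean of the kept probes Mdk gave -0.11 in shPGRN against control cells. Genes called were 1571, 1603 and 783 in the 3 comparisons, and in hPGRN against control cells 517 to 873 without single arrays. Of the pathway genes, those lower between the modified lines (3) were 1 on the authors' values, with no filter and with every probe a feature, and 0 to 3 without single arrays. Those higher (5) were 3 with no filter, 8 with the mean of probes, 9 with the 2 lines alone, 11 with array weights and 3 to 10 without single arrays. Those lower in shPGRN than in control cells (5) were 3 with an offset of 16 and 3 to 5 without single arrays. In hPGRN against control cells the 1 lower gene was lost (0) on the authors' values and with an offset of 16, with 0 to 1 without single arrays, and the 4 higher were 2 on the authors' values and 2 to 5 without single arrays. Of 30 named calls, 11 held under all alternatives, namely those of Nrp1, Hs3st1 and Extl1 in 2 comparisons each and those of Ret, Dusp6, Etv1 and Gpc1 in shPGRN and of Ptprs in hPGRN against control cells. Arrays with the same replicate number were not alike (correlations of deviations -0.160 to 0.128 over 12 pairs of arrays), so they were not treated as pairs, and a replicate block gave 1440, 1485 and 683 genes called and ended 3 named calls. Probes near background, such as those of Sdc3, Cntn1 and Shc3, have differences set largely by the offset. The size of the Hs3st1 differences also depends on it, since hPGRN and control cells were near background there.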
